A study of Mus musculus with 18 samples.

Results

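The Hox cluster genes encode homeodomain transcription factors that lie in 4 clusters, Hoxa, Hoxb, Hoxc and Hoxd, and their transcript levels were followed in mouse embryonic stem cells after DNA damage. Members were taken by symbol: every probe of the array that named a single gene beginning with Hoxa, Hoxb, Hoxc or Hoxd and a number. This gave 38 of 19935 genes measured, of which 37 were coding genes and 1, Hoxd3os1, was a non-coding transcript from the strand opposite Hoxd3. Hoxb8 shared its probe with Hoxb7 and was not analysed here. The coding members were 10 Hoxa, 9 Hoxb, 9 Hoxc and 9 Hoxd genes, or 7 anterior genes (paralog groups 1 to 3), 14 central genes (groups 4 to 8) and 16 posterior genes (groups 9 to 13).

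The study exposed embryonic stem cells to DNA-damaging agents and measured RNA on 18 whole-transcript arrays. R1E, a line of mouse embryonic stem cells kept in serum with leukemia inhibitory factor, were mock treated, given 0.5 µM adriamycin for 8 hours, or irradiated with ultraviolet light (UV) at 25 J/m2 and examined at 8 hours, with n = 4 arrays in each group. Adriamycin (doxorubicin) poisons topoisomerase II and breaks DNA, while UV makes bulky lesions in it. Mouse embryonic stem cells labelled p53-/-, of 129X1 x 129S1 background, were left untreated or exposed for 8 hours to the same 0.5 µM of adriamycin, with n = 3 arrays in each group. Values are log2 intensities. The R1E and p53-/- arrays were normalized separately, so cell line, genotype, processing and array set cannot be told apart between them. No label states that replicate arrays stem from separate cultures; p-values therefore reflect array-to-array spread, possibly only technical. The Trp53 transcript was not analysed here, so the p53-/- label was taken as given.

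Hox proteins give cells their position along the body axis, and the genes are switched on in order along each cluster as an embryo forms its trunk and limbs. In embryonic stem cells the clusters are a textbook case of polycomb repression: PRC2 methylates histone H3 at lysine 27 over them, PRC1 compacts them, and MLL complexes and H3K27 demethylases act in the opposite direction when cells differentiate. Hox proteins bind DNA together with TALE cofactors of the Pbx, Meis and Pknox families, and Cdx proteins and retinoic acid are known activators of the clusters.

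Polycomb-bound promoters of this kind are often rich in CpG. The 250 bases before the start site are shown for a pair of Hoxd genes that differ in this feature. By the tests below against R1E mock, Hoxd13 was called only after adriamycin and Hoxd11 only after UV. The sequences are RefSeq's, build GRCm38.p6, with each CG in capitals, and the first window listed for a gene was used. Any other start site of a gene was not examined. The Hoxd13 window, at chr2:74667975-74668224 on the plus strand, held 31 CG pairs and had an observed over expected CpG ratio of 0.90. The Hoxd11 window, at chr2:74679308-74679557 on the plus strand, held 2 CG pairs and had a ratio of 0.16.
Hoxd13: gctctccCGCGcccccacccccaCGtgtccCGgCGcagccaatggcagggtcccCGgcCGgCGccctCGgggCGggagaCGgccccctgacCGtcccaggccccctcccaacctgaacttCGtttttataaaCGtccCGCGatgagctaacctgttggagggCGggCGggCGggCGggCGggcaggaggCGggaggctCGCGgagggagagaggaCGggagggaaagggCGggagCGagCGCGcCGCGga
Hoxd11: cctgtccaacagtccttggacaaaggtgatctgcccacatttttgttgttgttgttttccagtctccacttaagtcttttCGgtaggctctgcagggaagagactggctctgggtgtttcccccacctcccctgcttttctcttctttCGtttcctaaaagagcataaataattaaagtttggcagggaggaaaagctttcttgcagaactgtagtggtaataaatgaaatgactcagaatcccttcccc
RefSeq's table held a window for 22 of the 38 members; those of Hoxc13, Hoxc12, Hoxb9, Hoxb6, Hoxc8 and Hoxb2, described below, were among the 16 without one. The 22 windows held a median of 11 CG pairs, with a range of 2 to 35, against a median of 6 over all 27025 promoters. A ratio above 0.6 was found in 10 of the 22 and in 34.5% of all promoters. The p53 consensus decamer, searched on both strands, matched in 3 of the 22 (Hoxa11, Hoxd4 and Hoxd10) and in 7.18% of all promoters. Of these 3 genes, Hoxa11 was called after UV and none after adriamycin in R1E cells. Of the members called after adriamycin, Hoxc13, Hoxc12 and Hoxb9 had no window. Only Hoxd13 could be searched, without a match, so these windows cannot show whether the called genes carry the decamer.

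To ask which Hox genes were above background, the olfactory and vomeronasal receptor genes, 1189 in all, were taken as probes with little or no target RNA in these cells. A gene was counted above background in a group when its mean lay above the 95th percentile of these receptor genes, which was 4.30 in R1E mock, 4.29 after adriamycin and 4.36 after UV. In mock-treated R1E cells 19 of 38 Hox genes (50%) were above this bound, against 72% of all genes. The share differed by cluster: 8 of 9 Hoxb genes were above it, 5 of 10 Hoxa genes, 4 of 9 Hoxd genes and 2 of 9 Hoxc genes, these being Hoxc12 and Hoxc13. After adriamycin 20 were above it (52.6%, all genes 72.9%) and after UV 23 (60.5%, all genes 72.2%). A core of 18 genes was above the bound in all 3 R1E groups, and 15 were above it in none of them, among them Hoxa2, Hoxa3, Hoxa5 and Hoxa11, most of the Hoxc cluster, and Hoxd8, Hoxd10 and Hoxd12. The genes that crossed the bound lay close to it: Hoxa9 and Hoxc5 after either agent, Hoxb6 and Hoxd3os1 after UV, and Hoxa6, which was above it in mock and UV but not after adriamycin. At a stricter bound, the 99th percentile of the receptor genes, 7 members remained above in mock, 6 after adriamycin and 7 after UV.

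The 5 members with the brightest probes in R1E mock were Hoxc13, Hoxb9, Hoxa4, Hoxb1 and Hoxb3; probes differ in affinity, so this is no order of transcript levels. Hoxc13, a posterior gene known for its part in hair and nail formation, read 5.55, 5.49, 5.60 and 5.79 on the 4 mock arrays. Hoxb9, a posterior gene of thoracic patterning, read 5.60, 5.54, 5.55 and 5.54. Hoxa4, a central gene, read 5.35, 5.57, 5.51 and 5.74. All 4 mock arrays lay above the bound for each of them. Hoxb1, the anterior gene that specifies a hindbrain segment and responds to retinoic acid, read 5.20, 5.30, 5.40 and 5.64. Hoxb3, also expressed in the hindbrain, read 5.22, 5.36, 5.32 and 5.59. All of these stayed below the middle of the array: Hoxc13 stood at percentile 46.4 of all genes in mock, and the median Hox gene at percentile 28.1.

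**Figure D1:**
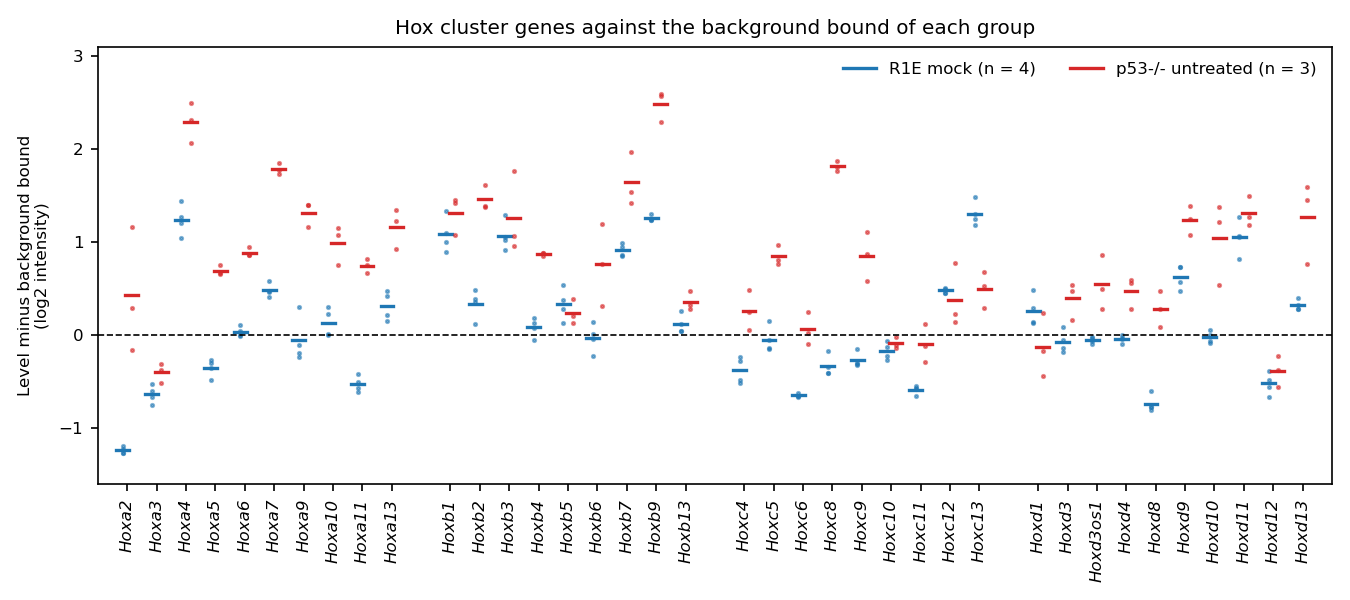
Level of each Hox member minus the background bound of its own group (log2 intensity, y axis) in R1E mock arrays (blue, n = 4) and untreated p53-/- arrays (red, n = 3), ordered by cluster and paralog group; points are arrays and bars are means. In R1E mock 19 of 38 means lie above the dashed line, in untreated p53-/- cells 33 of 38.

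In untreated p53-/- cells more of the clusters was above background. There, with a bound of 4.26, 33 of 38 members were above it (86.8%, all genes 76.3%), and 32 (84.2%, all genes 75.7%) after adriamycin, with a bound of 4.37. Of these, 18 genes were above the bound in both untreated groups, and 15 were above it only in the p53-/- group, including 5 Hoxc genes (Hoxc4, Hoxc5, Hoxc6, Hoxc8 and Hoxc9). Hoxd1 was above it only in R1E mock, and Hoxa3, Hoxc10, Hoxc11 and Hoxd12 in neither. The sets were normalized separately, so levels were set side by side only as distances from each group's own bound, with no test. This distance was greater in p53-/- cells for 34 of 38 Hox genes and for 43.1% of all genes, with a median difference of 0.76 for Hox genes and -0.11 for all genes. It was greater by more than 1 log2 unit for 12 Hox genes, against 4.43% of all genes. A list of 87 developmental transcription factors outside the clusters also had a higher median level in untreated p53-/- cells, 5.27 against 4.89. The Hox medians were 5.07 and 4.31. Levels of all genes spread less on untreated p53-/- arrays (SD 1.89 to 2.02) than on R1E mock arrays (2.25 to 2.30). Hox genes were not compared with genes of like level. Hoxc8, a central gene of thoracic patterning, had the widest gap: 3.97 ± 0.112 (SD) in R1E mock, below the bound, and 6.08 ± 0.051 in untreated p53-/- cells. Hoxc13 went the other way, with a difference of -0.81. At the 99th percentile of the receptor genes, 17 members were above the bound in untreated p53-/- cells and 12 after adriamycin.

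Markers of the labelled cell type and of fibroblasts, which can serve as feeder cells and which express Hox genes by their place of origin, were read beside these levels. All 10 embryonic stem cell markers, Pou5f1, Nanog and Sox2 among them, were above the bound in every group. In R1E 9 of the 10 were called lower after adriamycin (limma, adjusted p below 0.05), against 25.6% of all genes, with a median change of -0.52. After UV 7 were called lower, against 21.2% of all genes, with a median of -0.28. The mean level of the 10 ran from 11.08 to 11.13 on R1E mock arrays and from 9.91 to 10.03 on untreated p53-/- arrays. Of 12 fibroblast markers 8 were above the bound in R1E mock and 11 in untreated p53-/- cells. Dcn, Lum, Postn and Prrx1 were not above it in R1E mock, and Lum was not in untreated p53-/- cells. The summed intensity of the 12 ran from 742.7 to 803.2 on R1E mock arrays, from 685.6 to 729.9 after adriamycin and from 693.4 to 732.8 after UV. In p53-/- cells it ran from 4185 to 4711 untreated and from 3513 to 3700 after adriamycin. Endoderm markers (Sox17, Gata4, Gata6, Foxa2 and Afp) were above the bound in 4 of 5 in R1E mock, Afp being the exception, and in 5 of 5 in untreated p53-/- cells. Their summed intensity ran from 287.4 to 295.1 and from 609.5 to 673.6. That of trophectoderm markers ran from 759.5 to 835.8 and from 960.4 to 1101. Mesoderm markers went the other way, from 249.7 to 284.8 in R1E mock and from 181.2 to 208.7 in untreated p53-/- cells. So did neural markers, from 629.3 to 701.2 and from 498.3 to 580.8. Median levels were higher in untreated p53-/- cells for both mesoderm (4.98 against 4.75) and neural markers (6.94 against 5.69). Of the 87 developmental transcription factors outside the clusters, 71 were above the bound in R1E mock and 80 in untreated p53-/- cells. The part of other cell types in the Hox levels was not tested, and in bulk RNA more cells of a type and more RNA per cell cannot be told apart.

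The next comparison asked which Hox genes adriamycin changed in R1E cells. One posterior gene, Hoxc13, rose 2.16-fold, Hoxb9 rose 1.19-fold, and Hoxc12 and Hoxd13 fell 1.24-fold and 1.19-fold. With limma and a Benjamini-Hochberg adjusted p below 0.05 over all genes, these 4 of 38 members (10.5%) were called, against 47.7% of all genes, of which 22.1% were higher and 25.6% lower. All 4 were posterior genes. Of the receptor genes taken as background 3.78% were called. None of the 7 anterior and none of the 14 central genes was called by limma, and 0 and 0 of them had an unadjusted p below 0.05; whether paralog groups differed was not tested. The median change was -0.02 over Hox genes and -0.02 over all genes. Leaving Hoxc13 aside, Hox changes lay between -0.31 and 0.25.

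Hoxc13 read 6.78, 6.66, 6.69 and 6.74 after adriamycin and 6.60, 6.65, 6.78 and 6.62 after UV. Every treated array lay above the highest mock array, 5.79. The log2 change was 1.11 ± 0.07 (SE) for adriamycin (limma, adjusted p = 4.13e-10) and 1.06 ± 0.07, or 2.08-fold, for UV (adjusted p = 1.72e-09). A called rise of at least 2-fold was found in 3.91% of all genes after adriamycin and in 1.87% after UV. The direct test between the agents gave 0.06, with a 95% interval from -0.08 to 0.19 (limma, adjusted p = 0.529).

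Hoxc12, the neighbour of Hoxc13 in the cluster, moved in the opposite direction. It read 4.76, 4.76, 4.81 and 4.80 on mock arrays, 4.70, 4.31, 4.44 and 4.46 after adriamycin and 4.40, 4.62, 4.58 and 4.65 after UV. All treated arrays lay below all mock arrays. It fell by 0.31 ± 0.07 on the log2 scale after adriamycin (limma, adjusted p = 0.00206) and by 0.22 ± 0.07 after UV (adjusted p = 0.0218). The UV call was lost without mock replicate 3 or without UV replicate 1.

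Hoxb9 read 5.84, 5.89, 5.69 and 5.81 after adriamycin and 5.93, 6.04, 5.86 and 5.98 after UV, all above its mock arrays. Its log2 change was 0.25 ± 0.05 for adriamycin (limma, adjusted p = 0.000995) and 0.40 ± 0.05, or 1.32-fold, for UV (adjusted p = 1.48e-05). Hoxd13, the posterior gene of digits and the genital bud whose CpG-rich window is printed above, read 4.58, 4.63, 4.70 and 4.58 on mock arrays and 4.34, 4.43, 4.44 and 4.28 after adriamycin. These groups did not overlap, and the change was -0.25 ± 0.06 (adjusted p = 0.00232). The Hoxd13 mean after adriamycin lay 0.09 above the bound, so the size of the fall may be limited by background. After UV Hoxd13 read 4.55, 4.76, 4.77 and 4.65, which overlapped the mock arrays, with a change of 0.06 that was not called. Beyond these 4, no member had adriamycin arrays all above or all below mock; of all genes 20.8% were so separated upward and 24.8% downward.

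When each array was first centred on its median, which shifted all adriamycin changes in R1E by -0.125, 15 Hox genes were called, 1 higher (Hoxc13) and 14 lower, and Hoxb9 was not. Over all 19935 genes 3281 were then called higher and 9640 lower. Higher genes then made up 25.4% of all calls, against 46.3% with the deposited values. Hoxb9 was also not called after quantile normalization, while Hoxc12, Hoxc13 and Hoxd13 were called in each of the 15 alternatives run for them.

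**Figure D2:**
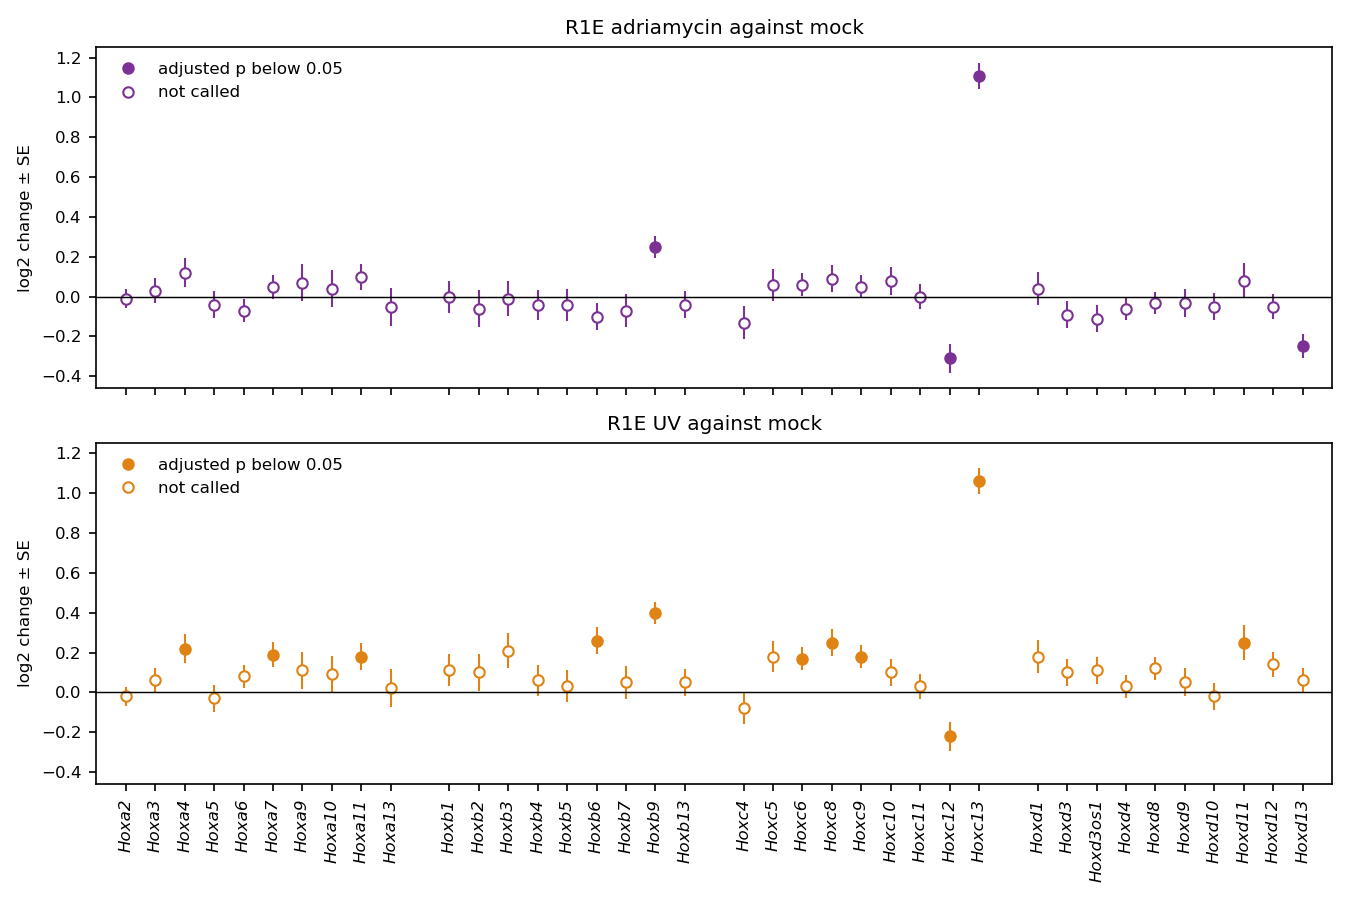
Log2 change against mock (y axis, with standard error) of the 38 Hox members after adriamycin (upper panel) and UV (lower panel) in R1E cells, n = 4 arrays per group; filled points have a Benjamini-Hochberg adjusted p below 0.05 in limma. Hoxc13 stands apart in both panels at 1.11 and 1.06, and 33 of 38 points lie above 0 after UV.

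After UV, 1 large and several small rises were called in the clusters. Of 38 members 10 rose and 1 fell (28.9% called), against 43.9% of all genes, of which 22.6% rose and 21.2% fell. The genes that rose were Hoxc13, Hoxb9, Hoxb6, Hoxc8, Hoxd11, Hoxa4, Hoxa7, Hoxa11, Hoxc9 and Hoxc6; Hoxc12 fell. By position, 5 central genes rose, 5 posterior genes rose and 1 fell, and none of the 7 anterior genes was called by limma, with 2 at an unadjusted p below 0.05. The median Hox change was 0.10, with 33 of 38 above 0, while over all genes the median was 0.03, with 11424 of 19935 above 0. The receptor genes taken as background had a median of 0.04, with 825 of 1189 above 0, and 5.47% of them were called. The developmental transcription factors outside the clusters had a median of 0.09. The mean Hox level ran from 4.54 to 4.58 on UV arrays, from 4.35 to 4.52 on mock arrays and from 4.35 to 4.51 on adriamycin arrays.

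Hoxb6, a central gene, read 4.08, 4.26, 4.31 and 4.44 on mock arrays and 4.48, 4.49, 4.65 and 4.52 after UV, with no overlap and a change of 0.26 ± 0.07 (limma, adjusted p = 0.00402). Hoxc8 read 3.96, 3.89, 4.13 and 3.89 on mock arrays and 4.20, 4.24, 4.32 and 4.12 after UV. The lowest UV array fell just under the highest mock array, and the change was 0.25 ± 0.07 (adjusted p = 0.00574). Every UV array of Hoxc8 lay below the background bound of 4.36. Hoxd11, a posterior limb gene whose CpG-poor window is printed above, read 5.12, 5.36, 5.37 and 5.57 on mock arrays and 5.56, 5.45, 5.73 and 5.68 after UV. Its groups overlapped, and the change was 0.25 ± 0.09 (adjusted p = 0.0292). This call was lost without mock replicate 1, 2 or 3 or UV replicate 3 or 4. The other rises, in Hoxa4, Hoxa7, Hoxa11, Hoxc6 and Hoxc9, ran from 0.17 to 0.22, with overlapping groups. Hoxa11, Hoxc6, Hoxc8 and Hoxc9 were above the bound in none of the R1E groups. Groups did not overlap for Hoxb6, Hoxb9 and Hoxc13 upward and Hoxc12 downward, against 20.6% and 20.2% of all genes.

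The UV count depended on scaling and on single arrays, and whether it differed from the adriamycin count was not tested. After median centring or quantile normalization 5 members were called: Hoxb6, Hoxb9, Hoxc8, Hoxc13 and Hoxc12; with centring, higher genes made up 35.3% of all calls against 51.6%. Without mock replicate 3 the count was 6 and without UV replicate 4 it was 7. Hoxb6, Hoxb9, Hoxc8 and Hoxc13 were called in every alternative run for them.

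**Figure D3:**
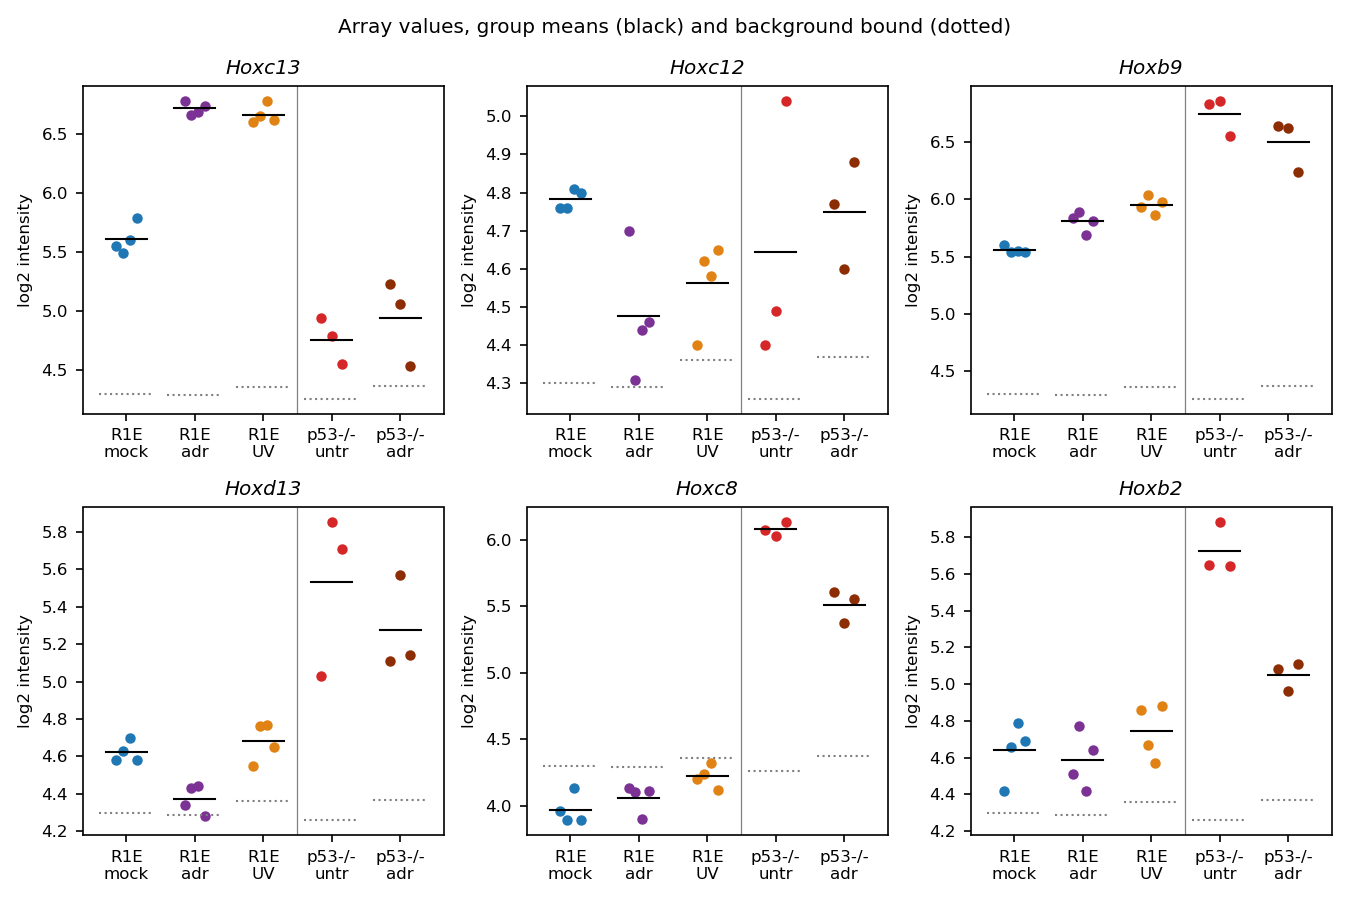
Array values (log2 intensity, y axis) of Hoxc13, Hoxc12, Hoxb9, Hoxd13, Hoxc8 and Hoxb2 in the 5 groups; adr is adriamycin, untr untreated, black bars are group means, dotted lines the background bound of each group, and the vertical line separates the R1E arrays (n = 4 per group) from the separately normalized p53-/- arrays (n = 3 per group). Hoxc13 is higher on all treated R1E arrays, and Hoxc8 lies below the bound in R1E groups.

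Set directly against UV, the Hox genes that differed were all lower after adriamycin. No member was called higher by limma and 8 were called lower (21.1%, against 42% of all genes, of which 19.8% were higher and 22.2% lower): Hoxb3, Hoxb6, Hoxb9, Hoxd3, Hoxd3os1, Hoxd8, Hoxd12 and Hoxd13. The change lay below 0 for 36 of 38 members, the exceptions being Hoxc13 and Hoxa2 at 0.06 and 0.02. It also lay below 0 for 12092 of 19935 genes, 968 of 1189 receptor genes and 75 of the 87 other developmental transcription factors. Of the receptor genes 8.58% were called. Of the Hox members 12 had an unadjusted p below 0.05. Among the called members, Hoxd3, Hoxd8 and Hoxd12 lay below the bound in both groups, and Hoxb6 and Hoxd3os1 lay below it after adriamycin. The size of these differences is limited by background. Hoxb6 read 4.19, 4.16, 4.13 and 4.21 after adriamycin, below all of its UV arrays, with a difference of -0.36 ± 0.07 (adjusted p = 0.00032). Hoxd13 differed by -0.31 ± 0.06 (adjusted p = 0.000494), also without overlap. Separation of this kind was also found for Hoxd3 and Hoxd8, and downward in 19.9% of all genes. The calls of Hoxb6 and Hoxd13 held in every alternative run for them. The count was 2 without adriamycin replicate 3, the array with the lowest mean Hox level of its group, and 4 without adriamycin replicate 4, UV replicate 2 or UV replicate 3. It was 14, all lower, after median centring, where higher genes made up 34.7% of all calls against 47.2%.

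In p53-/- cells no Hox gene was called after adriamycin by limma, and of all genes 0.0953% were called, 0.015% higher and 0.0803% lower. The untreated replicate 3 array had the lowest mean correlation with its group, 0.9847, and without it 135 genes were called higher and 307 lower, against 3 and 16. Standard errors were larger there, with a median of 0.148 over Hox genes against 0.069 in R1E. The median Hox change was -0.00, with 19 members above 0 and 19 below, and 5 members had an unadjusted p below 0.05. These were Hoxb2, Hoxc8, Hoxb3, Hoxd11 and Hoxa4, named after their values were seen. Hoxb2, an anterior gene of the hindbrain, read 5.65, 5.88 and 5.64 untreated and 5.08, 4.96 and 5.11 after adriamycin. Hoxc8 read 6.07, 6.03 and 6.13 untreated and 5.61, 5.37 and 5.55 after adriamycin. In both genes the treated arrays lay below all untreated arrays. The change was -0.67 for Hoxb2 (limma, unadjusted p = 0.000197, adjusted p = 0.106) and -0.56 for Hoxc8 (unadjusted p = 0.000688, adjusted p = 0.157). Both were called lower without untreated replicate 3, where calls were also more frequent over all genes (above), and Hoxb2 alone after median centring or quantile normalization. With centring, higher genes made up 4.2% of the calls over all genes, against 15.8%. Groups were separate for 4 members downward (Hoxa11, Hoxb2, Hoxb3 and Hoxc8; 5.22% of all genes) and 2 upward (Hoxa4 and Hoxd11; 12.3% of all genes). The fibroblast markers, whose summed intensity was lower after adriamycin in these cells, had a median change of -0.23 with none of 12 called and 3 at an unadjusted p below 0.05; their part in the Hox values was not tested.

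Hoxc13, the gene that moved most in R1E cells, read 4.94, 4.79 and 4.55 in untreated p53-/- cells and 5.23, 5.06 and 4.54 after adriamycin. The groups overlapped, and the change was 0.18 ± 0.18, with a 95% interval from -0.21 to 0.58 (limma, adjusted p = 0.742). The difference of the adriamycin effects, R1E minus p53-/-, was tested directly with each set's own spread. It was called for 4 members, all higher in R1E and none lower (10.5%, against 21.7% of all genes, 10.4% higher and 11.4% lower). Of the receptor genes 1.01% were called. Hoxc13 differed by 0.93 ± 0.19 (adjusted p = 0.00227), from changes of 1.11 in R1E and 0.18 in p53-/- cells. For Hoxc8 the difference was 0.66 ± 0.14 (adjusted p = 0.00202) and for Hoxb2 0.61 ± 0.16 (adjusted p = 0.00575). Neither gene was called in R1E, where their changes were 0.09 and -0.06, against -0.56 and -0.67 in p53-/- cells. Hoxc8 was below the bound in both R1E groups, so a fall could not be seen there and the size of its difference is limited by background. Hoxb2 lay 0.34 above the bound in R1E mock, so a change of -0.67 there would have ended below the bound. The size of its difference may be limited by background too. Hoxb2 read 4.42, 4.66, 4.79 and 4.69 on R1E mock arrays and 4.51, 4.77, 4.42 and 4.64 after adriamycin; Hoxc8 read 4.13, 4.10, 3.90 and 4.11 after adriamycin, below the bound.

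Hoxb9 differed by 0.49 ± 0.16 (adjusted p = 0.0371). It read 6.83, 6.86 and 6.55 in untreated p53-/- cells and 6.64, 6.62 and 6.24 after adriamycin. This call was lost without untreated replicate 1 or 2 or any of the 3 treated p53-/- arrays, and with an intensity trend in the variance prior. The calls of Hoxc13, Hoxc8 and Hoxb2 held in all 21 alternatives. Genotype, cell line, array set and processing cannot be told apart in these differences.

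**Figure D4:**
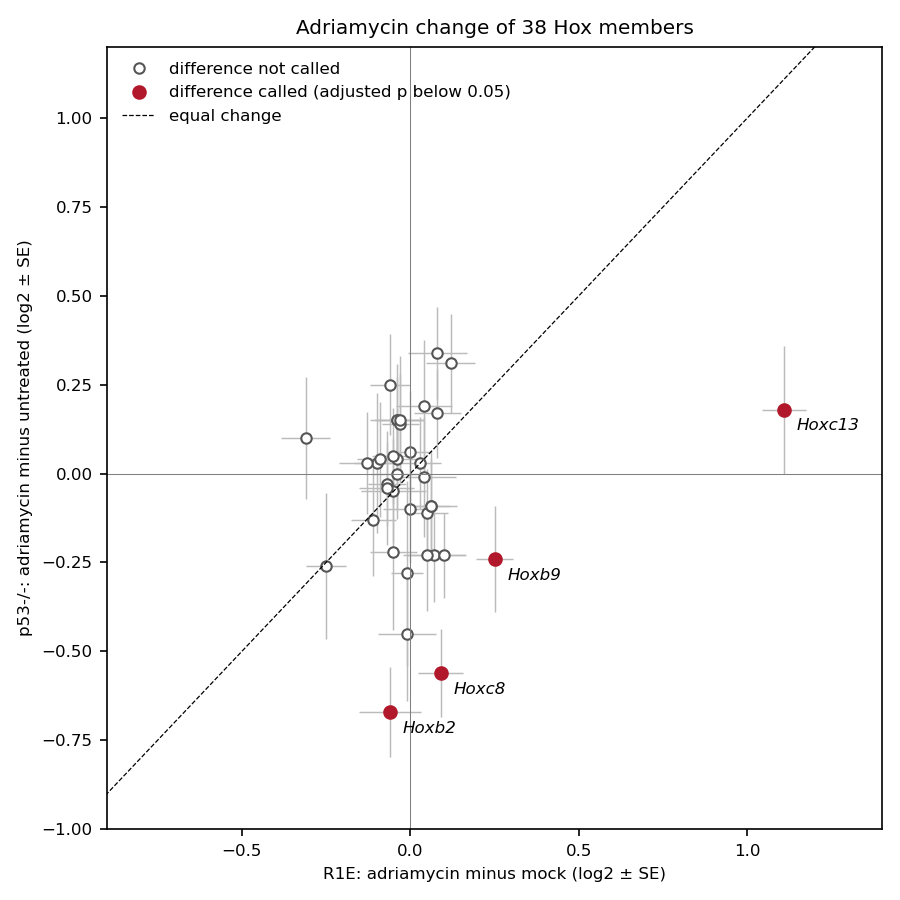
Adriamycin change of each of the 38 Hox members in R1E cells (x axis, n = 4 arrays per group) and p53-/- cells (y axis, n = 3 per group), as log2 change with standard error; filled points are members whose difference had an adjusted p below 0.05, and the dashed line marks equal change. The 4 filled points all lie to the right of the line.

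Genes known to act with or on the Hox clusters were counted in the same fits, where 47.7% of all genes were called after adriamycin and 43.9% after UV. Of 8 measured TALE cofactors, 2 rose and 4 fell after adriamycin in R1E. Meis2 changed by -0.78, Pbx2 by -0.74, Pbx3 by -0.57 and Meis1 by -0.20, while Pbx4 changed by 0.58 and Pknox2 by 0.33. Meis2 and Meis1 lay above the bound in mock (4.58 and 4.34) but not after adriamycin (3.79 and 4.14), so the size of their changes is limited by background. After UV 2 rose and 3 fell, with Pbx3 at -1.23, Meis2 at -0.59, Pbx2 at -0.43, Meis3 at 0.47 and Pbx4 at 0.26; Pknox1 was called after neither agent. In p53-/- cells none of the 8 was called by limma and 2 had an unadjusted p below 0.05. The adriamycin effect differed between the sets for Pbx2, by -0.95 (adjusted p = 0.00025), and for Meis2, by -0.47 (adjusted p = 0.0278). These made up 25% of the TALE genes, against 21.7% of all genes called for the difference. The Meis2 difference is limited by background, and so is its UV change, which ended at 3.99, below the bound. Of the Cdx genes, Cdx4 changed by 0.19 after UV, at a level of 3.30 in mock that was below the bound, and Cdx1 and Cdx2 were not called after either agent.

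Polycomb components fell in 21 of 29 genes and rose in 4 after adriamycin, and fell in 18 and rose in 3 after UV. Their median changes were -0.25 and -0.19. Over all genes 25.6% were called lower after adriamycin and 21.2% after UV. All 29 polycomb genes were above the bound in R1E mock, against 72% of all genes, and they were not compared with genes of like level. After adriamycin the PRC1 subunit gene Pcgf3 changed by 1.42 and Pcgf5 by -1.18, and the PRC2 accessory gene Phf19 by -1.21. After UV Pcgf5 changed by -0.83, Jarid2 by -0.80, Phf1 by 0.80 and Ezh2, the methyltransferase of PRC2, by -0.62. Of 15 genes for MLL complexes and H3K27 demethylases, 12 fell and 2 rose after adriamycin and 9 fell and 3 rose after UV. Among them, the demethylase gene Kdm6a changed by -0.77 and -1.05. Of 18 retinoic acid pathway genes 4 rose and 6 fell after adriamycin and 6 rose and 4 fell after UV, with the receptor gene Rxra at 0.67 and the binding protein gene Crabp2 at -0.63 after adriamycin. Retinoic acid genes after UV stayed within -0.40 and 0.36. For comparison, 26.4% of the 87 other developmental transcription factors were called after adriamycin and 29.9% after UV. Tbx4 led them at 2.14 and 1.55, Nkx2-9 had 1.47 and 1.45, and Eomes had -1.87 and -0.72.

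Of 30 measured neighbours of the clusters, 4 rose and 13 fell after adriamycin, and 5 rose and 8 fell after UV. These shares, 56.7% and 43.3%, were near those of all genes, 47.7% and 43.9%. Ttll6, a tubulin polyglutamylase gene beside Hoxb13, rose 6.90-fold after adriamycin (log2 change 2.79 ± 0.06, limma, adjusted p = 6.92e-15) and 2.70-fold after UV. In p53-/- cells its change was 0.24 and was not called, and the effects differed by 2.54 ± 0.15 (adjusted p = 4.14e-09). Hoxb13 itself, a posterior gene of the prostate and tail, read 4.42, 4.35, 4.35 and 4.56 on mock arrays and 4.27, 4.52, 4.31 and 4.43 after adriamycin, a change of -0.04. Beside the Hoxa cluster, Snx10 changed by -0.93 after adriamycin and Skap2 by -1.01 after UV.

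MicroRNA genes of the miR-10 and miR-196 families lie inside the clusters, and their mature sequences from RefSeq are shown because those families target Hox transcripts, with the seed (bases 2 to 8) in capitals.
miR-196a-5p: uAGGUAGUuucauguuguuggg
miR-10a-5p: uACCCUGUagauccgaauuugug
miR-10b-5p: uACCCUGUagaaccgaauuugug
The miR-10 pair shares a seed, and miR-196a has another. Mir196a-1 encodes miR-196a-5p at chr11:96265187-96265208 on the plus strand (GRCm38.p6), between Hoxb genes. Its probe changed by 0.43 ± 0.09 after adriamycin (adjusted p = 0.000775), from 4.16, below the bound, to 4.59. After UV it changed by 0.06. Mir10a and Mir10b stayed below the bound in every group. The sources used here do not say whether these probes read the mature or the precursor RNA.

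Across the 37 coding members, the adriamycin change in R1E was not ordered along the clusters: Spearman's rho with the paralog number was 0.09, and 0.03 without Hoxc13. For UV it was -0.00 and -0.08. These values are a description, since the members share arrays. Hoxd3os1 had 2 probes, and the one not used gave -0.13 after adriamycin and -0.02 after UV, against -0.11 and 0.11 for the one used.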

How the data were processed

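The 18 samples were measured on whole-transcript arrays, and the table the authors deposited holds log2 intensities. Affymetrix Expression Console 1.1 was used for R1E arrays and Partek 6.4 with RMA for p53-/- arrays, per the submitters' processing notes. The Expression Console algorithm and the genome build of the array are not given in the sources used here. Array medians lay between 5.30 and 5.61, and the number of arrays limits precision.

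Of 28853 probes, 28815 had values on all 18 arrays. The annotation gave 1 symbol for 21780, several for 1605 and none for 5430. Of the probes with 1 symbol, 21689 matched RefSeq (GRCm38.p6), and 0 symbols changed. Where a gene had several probes (998 genes), the one brightest on average over all 18 arrays stood for it.

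Groups came from the labels. Tests used limma 3.58.1 (lmFit and eBayes, R 4.3.3) on the deposited values of all 19935 genes, with Benjamini-Hochberg adjustment and a threshold of 0.05. One fit covered the 12 R1E arrays and another the 6 p53-/- arrays. The difference of effects combined the moderated errors of both, with Satterthwaite degrees of freedom. Scripts were tested on simulated data; in that test the share of false calls for the difference of effects was somewhat above the threshold. The members, lists and tests were chosen with earlier results of these data known. Array values were printed for up to 6 called members with the largest change per comparison, called members of the difference, and the 5 brightest in R1E mock, and of each other list up to 4 called genes with the largest changes, with TALE and Cdx genes in any case. Alternatives covered scaling, dim genes, the choice of probe, the variance prior, a replicate block, which arrays were fitted, the background percentile and each array left out.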

Additional observations from a re-analysis of the deposited data

Results flagged for a closer look

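Among groups of 4 arrays, 9 of the 114 checked held 1 array far from the other 3, where chance gives 1 in 20, or 5.7. After adriamycin in R1E, Hoxa5 read 3.73 on replicate 3 against 3.94 to 3.98 on the others, and Hoxc8 read 3.90 on the same array against 4.10 to 4.13. Hoxa7 read 4.90 on replicate 2 against 4.81 to 4.82, and Hoxd8 read 3.48 on replicate 4 against 3.55 to 3.56. On mock arrays Hoxc6 read 3.68 on replicate 2 against 3.64 to 3.65, Hoxc9 read 4.15 on replicate 1 against 3.98 to 4.00, and Hoxd8 read 3.70 on replicate 4 against 3.50 to 3.53. After UV Hoxd3 read 4.43 on replicate 1 against 4.28 to 4.30, and Hoxd9 read 4.93 on replicate 2 against 5.0 to 5.01.

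The adriamycin effect differed between R1E and p53-/- cells by the direct test for Hoxc13 (0.93 on the log2 scale), Hoxc8 (0.66), Hoxb2 (0.61) and Hoxb9 (0.49), all higher in R1E. Hoxc8 was below background in both R1E groups, so its value is limited by background. Hoxb2 lay 0.34 above the bound in R1E mock, so its value may be limited too. Genotype, cell line, array set and processing cannot be told apart in these values.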

How the results depend on the processing

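No call of a single member reversed its direction under any alternative run. Medians close to 0 did change sign. The Hox median after adriamycin in R1E, -0.02, was 0.012 without mock replicate 4 and 0.027 without adriamycin replicate 3. The median over all genes after UV, 0.032, was -0.045 after median centring and -0.005 after quantile normalization. The Hox median of the difference of effects, -0.018, was 0.037 after quantile normalization and 0.015 without adriamycin replicate 3 of R1E, and that in p53-/- cells, -0.001, was 0.029 without untreated replicate 3. Of the counts under alternatives, 95 stayed within 1.5 times the main count and 21 did not. Calls of single members stayed past the threshold in 335 alternative values and were lost in 87. After median centring, the members called were 15 for adriamycin in R1E, 5 for UV, 14 for adriamycin against UV and 1 in p53-/- cells. After quantile normalization they were 5 for UV, 5 for adriamycin against UV and 1 in p53-/- cells. With an intensity trend and robust prior, adriamycin against UV had 5 calls. At the 99th percentile of the receptor genes, 7 members were above background in R1E mock, 6 after adriamycin, 7 after UV, 17 in untreated p53-/- cells and 12 after adriamycin there. With each array left out in turn, the calls ran from 4 to 6 for adriamycin, from 6 to 16 for UV, from 2 to 7 for adriamycin against UV, from 3 to 5 for the difference of effects and from 0 to 2 in p53-/- cells. The causes were not tested. For the 15 members above background in none of the R1E groups, signal limits what these arrays can show.

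Replicate numbers did not pair the arrays: deviations of arrays with the same number correlated between -0.142 and 0.191. With the replicate number as a block, the calls were 4 for adriamycin, 12 for UV, 5 for adriamycin against UV, 4 for the difference of effects and 0 in p53-/- cells.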
